A study of Mus musculus with 18 samples.

Results

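Bone marrow progenitors of NHD13 mice labelled Setd2 KO were compared with those of NHD13 mice labelled Setd2 flox/flox, in 3 RNA-seq libraries a group (6 of the 18 samples of the series). The KO group carries the NHD13 transgene, a fusion of NUP98 with HOXD13 that causes a myelodysplastic syndrome in mice, and Setd2 alleles deleted through Mx1-Cre. The NHD13 group carries the transgene and floxed Setd2. Both are on C57BL/6, and both are sorted hematopoietic stem and progenitor cells (HSPCs). The labels do not give the sorting markers, the inducer of Mx1-Cre, whether the NHD13 group carries Mx1-Cre, or the age of the mice. Mx1-Cre is interferon-inducible and is not limited to blood cells. WT libraries (C57BL/6 marrow HSPCs) and AML libraries (C-Kit+ spleen cells of Setd2 KO mice at leukemia stage), 3 of each, were in the fit and are given as levels beside the comparison. Of 53946 genes in the deposited table, 16233 passed an expression filter, and 15742 were tested after 491 genes on X and Y were left out.

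Setd2 encodes the enzyme that trimethylates lysine 36 of histone H3 (H3K36me3) along transcribed genes, a mark read by DNA methyltransferases, splicing regulators and mismatch repair. Progenitors on the granulocyte path first make the primary granule proteins at the promyelocyte stage, then the secondary granule proteins under the transcription factor C/EBPε, and last the receptors and gelatinases of mature neutrophils. Stem cells and early multipotent progenitors carry other genes, among them Meis1, Flt3, Cd34 and Gata2, which are shut down along this path.

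Library totals were 20436804 to 28127686 counts in KO and 22243002 to 24766705 counts in NHD13. Between 9.23% and 10.02% of a KO library and between 14.1% and 15.8% of an NHD13 library belonged to its 10 most abundant genes, and mitochondrial genes made up 1.3% to 1.5% in KO and 0.967% to 1.42% in NHD13. Values are CPM, counts scaled to the tested-gene total after TMM factors, and log2 fold changes are KO over NHD13 ± SE, from edgeR's quasi-likelihood test with Benjamini-Hochberg adjustment over the 15742 genes. Setd2 itself (chr9:110532500-110618633) had 33.1, 29.2 and 34.9 CPM in KO, against 34.4, 34.6 and 31.5 CPM in NHD13. These overlap (log2 -0.05 ± 0.08, adjusted p = 0.686), so the KO label cannot be read from a count over the whole gene, which also takes in exons outside a deletion. The homeobox gene Hoxc5 and the RNA-binding protein gene Igf2bp3, which were at or near 0 in WT (means of 0 and 0.824 CPM), averaged 36.4 and 39.4 CPM in KO and 11.4 and 24.8 CPM in NHD13. The sex of the mice followed the group: as CPM of the library total, Y-linked Eif2s3y had 59, 53.8 and 54 in KO, against 0, 0 and 0.0404 in NHD13, and Xist had 0.0979, 0.0356 and 0.0437 in KO, against 67.8, 109 and 53.9 in NHD13. The effects of sex and of the KO label on autosomal genes cannot be told apart. Some immunoglobulin V segments were shared by the 3 libraries of a group: Igkv14-130 had 31.3, 37.6 and 26.2 CPM in KO, against 0, 0 and 0 in NHD13, and Ighv1-54 had 0, 0.0356 and 0 in KO, against 11.6, 8.12 and 8.8 in NHD13. Others were seen mainly in 1 library, such as Igkv12-44, at 0, 0 and 0 in KO, against 4.72, 0.0837 and 0 in NHD13. The labels do not say whether a group's libraries come from separate animals, so p-values cover only how far the deposited libraries vary, and that may be technical.

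Of the 15742 genes, 3209 rose (20.4% of those tested) and 3212 fell (20.4%). At 2-fold or more, 1344 rose (8.54%) and 1032 fell (6.56%). Without TMM factors 5280 rose and 1995 fell, and the median log2 fold change of all genes was 0.21, against 0.02 with them. On log2(FPKM + 0.1) values 5076 rose and 1951 fell. Small shifts are therefore read against that of all genes.

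**Figure D1:**
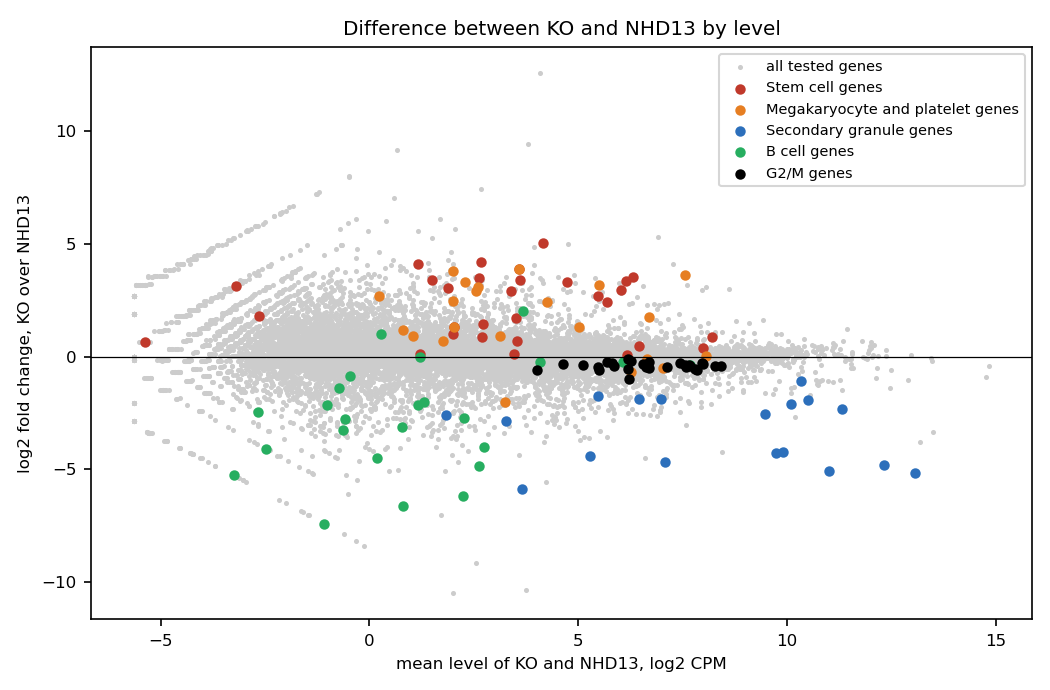
Each point is a gene: the horizontal axis is its mean level in KO and NHD13 (log2 CPM), the vertical axis its log2 fold change, KO over NHD13. Secondary granule genes (blue) lie far below 0 at high levels, stem cell (red) and platelet genes (orange) above 0, B cell genes (green) below 0 at low levels, and G2/M genes (black) in a narrow band just below 0.

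Promoter windows of RefSeq (GRCm38.p6, the build of mm10; 250 bases before to 50 after a start) are printed for 4 granulocyte genes whose windows reach into a region of differing DNA methylation between KO and NHD13. Capitals mark the CpG pairs that lie inside the region. The windows are S100a8 at chr3:90668821-90669120, Camp at chr9:109849407-109849706, Ngp at chr9:110419558-110419857 and Cd177 at chr7:24760262-24760561, each on the strand of its gene.
S100a8: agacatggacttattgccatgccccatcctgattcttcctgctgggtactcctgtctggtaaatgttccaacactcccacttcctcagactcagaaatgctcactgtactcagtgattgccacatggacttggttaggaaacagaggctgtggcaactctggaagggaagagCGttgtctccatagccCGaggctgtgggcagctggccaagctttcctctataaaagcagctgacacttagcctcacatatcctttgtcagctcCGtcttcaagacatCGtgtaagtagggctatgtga
Camp: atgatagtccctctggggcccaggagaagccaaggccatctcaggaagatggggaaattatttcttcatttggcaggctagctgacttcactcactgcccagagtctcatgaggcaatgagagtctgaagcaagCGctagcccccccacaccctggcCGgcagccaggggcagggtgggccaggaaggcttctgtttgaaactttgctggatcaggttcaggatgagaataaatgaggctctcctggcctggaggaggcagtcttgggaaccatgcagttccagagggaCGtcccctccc
Ngp: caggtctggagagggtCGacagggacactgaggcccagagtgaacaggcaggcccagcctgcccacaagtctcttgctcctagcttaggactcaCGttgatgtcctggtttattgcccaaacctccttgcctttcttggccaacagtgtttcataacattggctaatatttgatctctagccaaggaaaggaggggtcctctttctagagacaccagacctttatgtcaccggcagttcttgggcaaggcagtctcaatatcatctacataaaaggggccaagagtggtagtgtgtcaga
Cd177: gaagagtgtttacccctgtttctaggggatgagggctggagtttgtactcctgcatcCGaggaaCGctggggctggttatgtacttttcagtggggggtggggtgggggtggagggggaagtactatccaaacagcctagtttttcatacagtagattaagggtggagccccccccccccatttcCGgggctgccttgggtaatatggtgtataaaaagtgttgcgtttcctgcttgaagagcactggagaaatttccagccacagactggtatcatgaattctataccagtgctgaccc

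The windows of S100a9 (chr3:90695672-90695971) and of the cyclin gene Ccnb2 (chr9:70421505-70421804) are shown for letters that were counted over gene lists. In S100a9 the capitals are a match to TTNNGCAA (on the other strand), letters of the kind C/EBP factors bind, and GGAAGT, an ETS core of the kind Spi1 binds. In Ccnb2 they are CCAAT, bound by NF-Y, and TTTGAA, the cell cycle homology element.
S100a9: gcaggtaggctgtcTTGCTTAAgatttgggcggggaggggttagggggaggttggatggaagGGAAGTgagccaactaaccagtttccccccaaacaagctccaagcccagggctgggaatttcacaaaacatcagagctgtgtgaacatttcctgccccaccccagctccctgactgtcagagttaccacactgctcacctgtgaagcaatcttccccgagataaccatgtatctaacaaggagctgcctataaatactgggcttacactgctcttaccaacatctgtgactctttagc
Ccnb2: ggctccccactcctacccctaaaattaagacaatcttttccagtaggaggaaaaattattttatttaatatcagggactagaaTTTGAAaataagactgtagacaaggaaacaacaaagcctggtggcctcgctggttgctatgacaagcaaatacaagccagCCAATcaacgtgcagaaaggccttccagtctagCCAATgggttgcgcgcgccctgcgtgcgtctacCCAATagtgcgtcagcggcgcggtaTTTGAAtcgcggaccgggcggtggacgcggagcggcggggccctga
Both strands were searched. TTNNGCAA is in 10.8% of 27025 promoter windows, and in 5 of 15 windows of secondary granule genes, 3 of 13 of primary granule genes and 2 of 16 of late neutrophil genes. GGAAGT is in 24.1% of all windows, and in 8 of those 15, 9 of those 13 and 9 of 16 of late neutrophil genes. CCAAT is in 37.9% of all windows and in 20 of 23 windows of G2/M genes, and TTTGAA in 18.1% and in 18 of those 23. A match is no binding site.

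Granulocyte genes were lower in KO than in NHD13 at each step of the path, most of all the secondary granule genes. S100a8 and S100a9, which encode the 2 chains of calprotectin, an alarmin of neutrophils and monocytes, fell 10.2-fold and 13.8-fold. Among 18 secondary granule genes tested, 18 fell, with a median log2 of -2.72, against 0.02 over all genes. Among 20 late neutrophil genes 18 fell and 2 rose (median -2.19), and among 16 primary granule genes 15 fell and 1 rose (median -1.03). The summed level of the secondary granule list was 4099.8 to 4219 CPM in KO, against 42857 to 51563 CPM in NHD13. The part of a changed cell mixture in these values was not tested.

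S100a8 (ENSMUSG00000056054, chr3:90669071-90670034) had 2339.6, 1889.7 and 1987 CPM in KO, against 18850.0, 25712 and 18947 CPM in NHD13. The libraries of the 2 groups are far apart (log2 -3.35 ± 0.18, adjusted p = 1.82e-08). WT libraries averaged 381 ± 83.3 CPM and AML libraries 2707 ± 129 CPM, so KO lay between WT and NHD13. S100a9 (chr3:90692630-90695721) had 1350.4, 1220.1 and 1198 CPM in KO, against 15740.4, 21228 and 15061 CPM in NHD13 (log2 -3.79 ± 0.18, adjusted p = 8.67e-09). The title of the study names both proteins, together with impaired erythroid differentiation.

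Receptors and partners of calprotectin moved less together. Tlr4, its signalling receptor, fell to 2.69, 3.31 and 2.61 CPM in KO, against 10.1, 9.6 and 8.21 CPM in NHD13 (log2 -1.68 ± 0.18). Cd14, the co-receptor of Tlr4, fell (log2 -1.31 ± 0.11), as did the adaptor gene Myd88 (log2 -0.64 ± 0.07). Emb, which encodes embigin, a membrane protein reported to bind S100A8 and S100A9, rose to 427, 414 and 430.4 CPM in KO, against 200.4, 201 and 203 CPM in NHD13 (log2 1.07 ± 0.06). In the list of 10 genes, which holds S100a8 and S100a9 themselves, 6 fell, 1 rose and 3 did not pass, so that 4 of the 8 receptors and partners fell. Cd36 did not pass (log2 -0.4 ± 0.24).

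Secondary granule genes fell furthest. Ngp, a neutrophil granule cystatin relative, had 477, 481 and 435 CPM in KO, against 15673, 19807 and 15038 CPM in NHD13 (log2 -5.18 ± 0.10, adjusted p = 2.55e-17). Camp, the cathelicidin gene, had 363, 342 and 350.2 CPM in KO, against 9517, 10741 and 9302 CPM in NHD13 (log2 -4.81 ± 0.09). Ltf, which encodes the iron binder lactoferrin, had 82.3, 92.5 and 79.4 CPM in KO, against 1651, 1608 and 1654 CPM in NHD13 (log2 -4.27 ± 0.09). No KO library comes near an NHD13 library in these 3 genes. Lcn2, which encodes the siderophore binder lipocalin 2, fell as well (log2 -4.23 ± 0.11), as did Chil3 (-5.08 ± 0.11), Cd177 (-4.65 ± 0.11), Itgb2l (-4.4 ± 0.10) and the acute phase gene Orm1 (-5.87 ± 0.25; 0.316, 0.647 and 0.237 CPM in KO, against 26.3, 26.2 and 22.1 CPM in NHD13). The smallest fall of the list was that of Cyba, a subunit of the NADPH oxidase (log2 -1.09 ± 0.07).

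Primary granule genes fell by less. Mpo, which encodes myeloperoxidase, had 24099, 26050.0 and 25019.7 CPM in KO, against 32744, 31777 and 37286 CPM in NHD13 (log2 -0.44 ± 0.09, adjusted p = 6.67e-04), a call that was lost on FPKM values (log2 -0.25 and -0.25 with 1 and 0.1 added). Elane, the neutrophil elastase gene, had 18677, 18089 and 21232 CPM in KO, against 33255, 36752 and 38863 CPM in NHD13 (log2 -0.91 ± 0.08). Prtn3, the proteinase 3 gene next to it, fell by 2.04-fold (log2 -1.03 ± 0.07), and Ctsg, the cathepsin G gene, by 1.52-fold. Fcnb, a ficolin of granulocyte precursors, fell most (303, 322 and 318 CPM in KO, against 1985, 2109 and 1956 CPM in NHD13, log2 -2.68 ± 0.06). Ctsc, whose product activates the granule proteases, rose to 132, 135 and 126 CPM in KO, against 74.6, 69.1 and 71.3 CPM in NHD13 (log2 0.87 ± 0.06). At 25056 and 19333 mean CPM, Mpo and Elane stayed among the most abundant genes of the KO libraries, above their WT means of 14864 and 9403 CPM.

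Late genes fell across receptors, proteases and cytokines. Wfdc21 had 36.3, 33.5 and 34.6 CPM in KO, against 633, 729.7 and 624 CPM in NHD13 (log2 -4.25 ± 0.10). The surface marker gene Ly6g fell to 3.53, 2.89 and 2.71 CPM in KO, against 32.2, 36.9 and 35.2 CPM in NHD13 (log2 -3.52 ± 0.15). The gelatinase gene Mmp9 (log2 -2.46 ± 0.13), the cytokine gene Il1b (-2.88 ± 0.13), the leukotriene receptor gene Ltb4r1 (-2.04 ± 0.07) and Csf3r, the receptor of the growth factor G-CSF (-1.26 ± 0.07), fell too. Of the 2 genes that rose, the lectin gene Clec4d had a log2 of 0.74 ± 0.09, and the other, not named here, one of 0.90.

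The transcription factors of this path split. Cebpe, the regulator of secondary granules, had 53.3, 49.6 and 58.1 CPM in KO, against 188, 193 and 216 CPM in NHD13 (log2 -1.89 ± 0.07, adjusted p = 1.52e-13). Gfi1, a repressor needed for neutrophils, fell to 36.9, 38.9 and 35.9 CPM in KO, against 109.7, 84.5 and 115 CPM in NHD13 (log2 -1.47 ± 0.12), and Cebpd (log2 -1.47 ± 0.07), the inhibitor gene Id2 (-1.93 ± 0.09) and Spi1 (-0.77 ± 0.16) fell. Irf8, which directs monocyte and dendritic cell fates, rose to 183, 192 and 203 CPM in KO, against 46.8, 39.4 and 47.2 CPM in NHD13 (log2 2.11 ± 0.08), and Klf4, another monocyte factor, rose with it (log2 2.08 ± 0.17). Runx1 (log2 0.57 ± 0.08), Zeb2 (0.98 ± 0.07), Myc (0.48 ± 0.11) and Myb (0.3 ± 0.06) rose. Cebpa (log2 -0.33 ± 0.10), which starts granulocyte fate, and Cebpb (-0.35 ± 0.10) fell by a small step, and both calls were lost without TMM factors (log2 -0.14 and -0.16), on FPKM values and without some single libraries. Of the 23 factors, 10 rose, 9 fell and 4 did not pass, beside 20.4% each way of all genes.

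**Figure D2:**
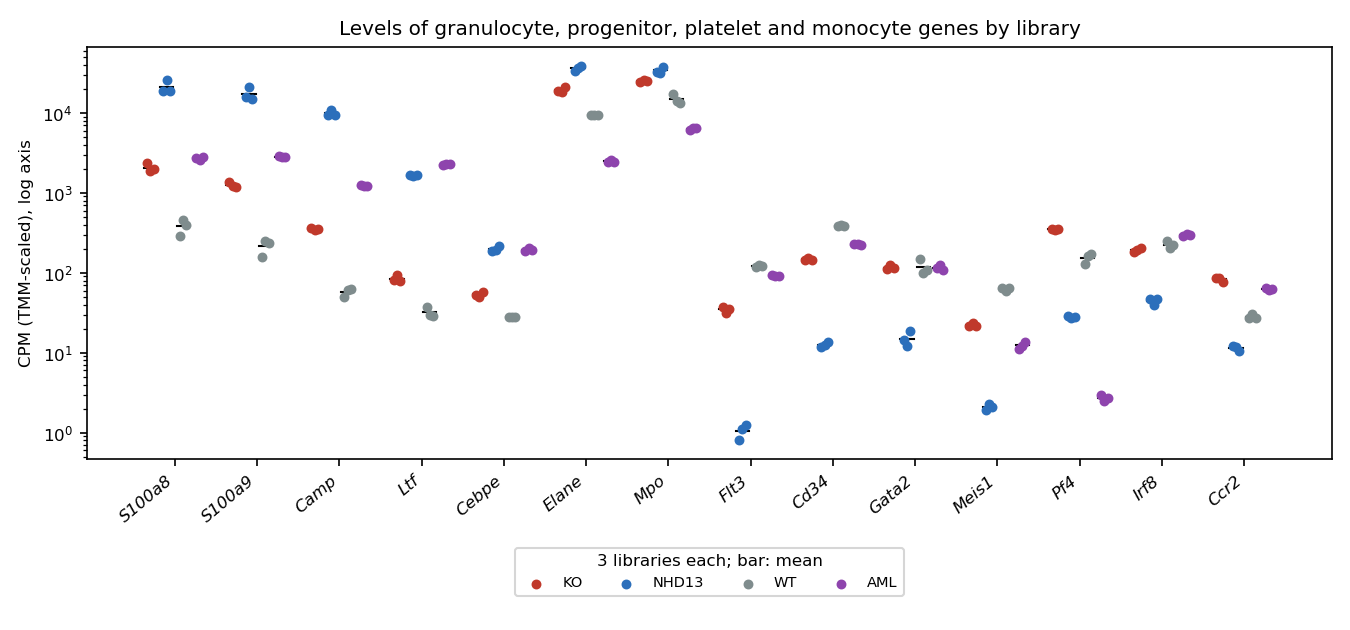
Levels of 14 genes in each library (CPM, log axis), with the 3 libraries of KO, NHD13, WT and AML side by side and a bar at each mean. The KO points of S100a8, S100a9, Camp, Ltf and Cebpe lie between those of NHD13 and WT, and so do those of Flt3, Cd34 and Meis1, while Pf4 and Ccr2 are highest in KO.

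Genes of stem cells and early progenitors were higher in KO. Of the 30 genes of the list 26 rose, and the other 4 did not pass. Their median log2 was 2.55, against 0.02 over all genes, and 21 rose 2-fold or more, against 8.54% of all genes. Bulk RNA cannot tell apart more cells of a type and more RNA per cell, here and in each result that follows.

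Flt3 (chr5:147330741-147400489), the receptor tyrosine kinase of multipotent progenitors, had 37.6, 31.3 and 35.5 CPM in KO, against 0.81, 1.1 and 1.24 CPM in NHD13 (log2 5.03 ± 0.12, adjusted p = 2.92e-16). Cd34 (chr1:194938821-194961292), the surface sialomucin used to sort progenitors, had 143, 154 and 146 CPM in KO, against 11.7, 12.6 and 13.6 CPM in NHD13 (log2 3.54 ± 0.07). Gata2, a zinc finger factor of stem cells and of mast cells, had 110.1, 123 and 115 CPM in KO, against 14.4, 12 and 18.5 CPM in NHD13 (log2 2.95 ± 0.18). No KO library overlaps an NHD13 library in these 3 genes. Meis1, the cofactor of Hox proteins, rose to 21.8, 23.3 and 21.6 CPM in KO, against 1.94, 2.31 and 2.08 CPM in NHD13 (log2 3.4 ± 0.12), and Mecom, which encodes the stem cell factor EVI1, to 19.3, 19.6 and 16.7 CPM, against 2.7, 2.46 and 2.32 CPM (log2 2.89 ± 0.13). Angpt1 (log2 3.31 ± 0.11), Ifitm1 (3.34 ± 0.08), Procr (3.4 ± 0.22), Sox4 (2.43 ± 0.20) and Cd27 (2.68 ± 0.09) rose as well.

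Kit, the stem cell factor receptor by which such cells are often sorted, rose by a small step (log2 0.46 ± 0.06; 95.3, 104 and 105 CPM in KO, against 75.6, 75.7 and 69.4 CPM in NHD13). Ly6a, the gene of Sca-1, had 5.59, 5.14 and 5.41 CPM in KO, against 2.65, 3.41 and 1.88 CPM in NHD13, against a WT mean of 49 CPM. Flt3 and Cd34 in KO lay between NHD13 and WT, where Flt3 averaged 122 ± 3.71 CPM and Cd34 388 ± 10.4 CPM. Slamf1, Mecom and Prdm16 were higher in KO than in either, with WT means of 5.66, 7.02 and 5.36 CPM beside KO means of 11.4, 18.5 and 14.3 CPM. Since WT was fitted only as a further group, these orders are given without a test.

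Several Hox genes, which the fusion protein is known to activate, were higher in KO. Among 21 Hox genes and cofactors tested, 11 rose and 1 fell (median log2 0.69). Hoxa9 had 142, 128 and 136 CPM in KO, against 83.9, 84.9 and 84.6 CPM in NHD13 (log2 0.68 ± 0.06), and Hoxa7 117, 131 and 127 CPM in KO, against 72.7, 74.8 and 85.3 CPM in NHD13 (log2 0.69 ± 0.07). Hoxc5 had 35.4, 37.2 and 36.5 CPM in KO, against 11.3, 11.5 and 11.4 CPM in NHD13 (log2 1.67 ± 0.09), and its neighbours Hoxc4 (log2 1.82 ± 0.16), Hoxc6 (1.2 ± 0.19) and Hoxc8 (1.98 ± 0.30) rose with it. Pbx3, a cofactor of Hoxa9, rose to 60.3, 53.9 and 57 CPM in KO, against 28.9, 29.5 and 26.1 CPM in NHD13 (log2 1.02 ± 0.08).

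Fetal blood genes were mixed. Hmga2, a chromatin protein of fetal stem cells, rose (log2 4.1 ± 0.34; 4.27, 4.57 and 3.89 CPM in KO, against 0.324, 0.105 and 0.297 CPM in NHD13). The RNA-binding protein genes Lin28b (log2 1.21 ± 0.13) and Igf2bp3 (0.67 ± 0.09) rose, with WT means of 0.106 and 0.824 CPM. Lin28a fell to 1.0, 0.685 and 0.617 CPM in KO, against 4.86, 6.45 and 6.28 CPM in NHD13 (log2 -2.95 ± 0.24).

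Megakaryocyte and platelet genes rose with the stem cell genes: 17 of 22 rose, 3 fell and 2 did not pass (median log2 1.55). Pf4, the platelet factor 4 chemokine, had 348, 345 and 355 CPM in KO, against 29, 27.6 and 27.6 CPM in NHD13 (log2 3.64 ± 0.09, adjusted p = 2.30e-16), above its WT mean of 154 ± 20.7 CPM. Itga2b, the integrin chain CD41, had 31.7, 35.7 and 28.9 CPM in KO, against 6.48, 4.72 and 6.72 CPM in NHD13 (log2 2.43 ± 0.15). The thrombin receptor gene F2r rose to 83.6, 79.1 and 82.5 CPM in KO, against 9.07, 8.02 and 10.1 CPM in NHD13 (log2 3.17 ± 0.09), and Treml1 (log2 3.07 ± 0.19), Gp1bb (2.92 ± 0.19) and the factor gene Mef2c (1.77 ± 0.07) rose. Gp9, another platelet gene of the list, was at a lower level than Pf4 in both groups, with 9.85, 13.4 and 11.2 CPM in KO, against 5.67, 6.13 and 6.28 CPM in NHD13. Thbs1 (log2 -2.03 ± 0.11), the ETS factor gene Fli1 (-0.68 ± 0.07) and the tetraspanin gene Cd9 (-0.5 ± 0.06), which other lineages also make, fell.

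Genes of mast cells, basophils and eosinophils moved both ways, with 6 of 21 rising and 10 falling, beside 20.4% each way of all genes. Cpa3, the mast cell carboxypeptidase, had 249, 244 and 223 CPM in KO, against 48.3, 49.3 and 39.4 CPM in NHD13 (log2 2.39 ± 0.10), and Ms4a2, a chain of the IgE receptor, rose as much (log2 2.32 ± 0.14). Eosinophil peroxidase, Epx, fell to 7.06, 13.5 and 11.9 CPM in KO, against 48.7, 51.9 and 42 CPM in NHD13 (log2 -2.12 ± 0.18), as did Ear2 (log2 -2.0 ± 0.16) and Prg2, the major basic protein gene (-0.95 ± 0.11). Alox5, the lipoxygenase of leukotriene synthesis, fell too (log2 -2.48 ± 0.16).

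Monocyte and macrophage genes moved both ways, with 12 of 27 rising and 11 falling, beside 20.4% each way of all genes. Cd14, given above, was among those that fell. The summed level of the list was 3973 to 4186 CPM in KO, against 6178 to 8010 CPM in NHD13. Ccr2, the chemokine receptor by which these cells leave the marrow, had 85.8, 86.8 and 76.1 CPM in KO, against 12.1, 11.9 and 10.4 CPM in NHD13 (log2 2.85 ± 0.09, adjusted p = 7.45e-15), and was 28.2 CPM on average in WT. Ms4a6c (log2 2.64 ± 0.11), the scavenger protein gene Cd68 (2.37 ± 0.08), the protease gene Ctss (2.27 ± 0.11), F13a1 (1.65 ± 0.08) and the receptor gene Csf1r (1.53 ± 0.13) rose as well. Of the genes of resident macrophages, Vcam1 (log2 -2.25 ± 0.11) and the iron exporter gene Slc40a1 (-1.96 ± 0.09) fell, and the complement gene C1qb, under 4 CPM in both groups, fell by less (log2 -0.82 ± 0.23), a call lost without KO replicate 2. Fcgr3, an Fc receptor shared with neutrophils, fell (log2 -1.54 ± 0.06). Among 21 dendritic cell and MHC class II genes 9 rose and 3 fell, beside the same 20.4% each way. The peptide loading gene H2-DMa rose to 170.4, 179 and 184 CPM in KO, against 55, 59 and 57.3 CPM in NHD13 (log2 1.64 ± 0.06), and the plasmacytoid factor gene Tcf4 rose (log2 1.12 ± 0.06), but Cd74, the invariant chain, fell (log2 -0.61 ± 0.09) and was at 110.1 CPM in WT.

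B cell genes were lower in KO. Of 24 tested, 20 fell, 2 rose and 2 did not pass (median log2 -2.60). Cd79a, a chain of the B cell receptor, had 0.738, 0.875 and 0.664 CPM in KO, against 12.9, 13 and 11.9 CPM in NHD13 (log2 -4.02 ± 0.17, adjusted p = 7.40e-13). Igll1, part of the surrogate light chain of pre-B cells, had 0.211, 0.419 and 0.57 CPM in KO, against 11.5, 10.7 and 13.8 CPM in NHD13 (log2 -4.87 ± 0.24). The factor gene Ebf1, which sets the B lineage, fell to 0.158, 0 and 0.142 CPM in KO, against 2.65, 2.15 and 1.68 CPM in NHD13 (log2 -4.48 ± 0.51), and Vpreb3 (log2 -6.21 ± 0.29) fell. WT means of these genes, 17.6 CPM for Cd79a and 22.1 for Igll1, were near or above those of NHD13, so B cell genes did not share the order seen in the granulocyte genes. Cd72, a receptor also found on other cells, rose to 19.6, 22.5 and 19.6 CPM in KO, against 5.18, 4.51 and 5.54 CPM in NHD13 (log2 2.02 ± 0.12). Earlier lymphoid genes split: Il7r, the interleukin 7 receptor (log2 -3.51 ± 0.58), Ly6d (-3.37 ± 0.25) and the polymerase gene Dntt (-3.07 ± 0.38) fell, while Satb1 (1.56 ± 0.09), Bcl2 (1.43 ± 0.14) and Foxo1 (1.21 ± 0.15) rose. Dntt was at 0.0527, 0.228 and 0.19 CPM in KO, against 0.972, 1.78 and 1.53 CPM in NHD13 and a WT mean of 121 CPM.

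Of 16 T and NK cell genes 12 did not pass. Those that rose were Gzmb, the granzyme B protease, with 112, 119 and 115 CPM in KO, against 16.8, 17.2 and 14.7 CPM in NHD13 (log2 2.83 ± 0.13, adjusted p = 4.11e-11), and the adaptor gene Lat, with 22.6, 25.7 and 21.7 CPM in KO, against 3.78, 2.67 and 3.91 CPM in NHD13 (log2 2.76 ± 0.16), which megakaryocytes and mast cells also make. Cd3d fell (log2 -1.51 ± 0.36), below 2 CPM in both groups. Of 11 stroma and endothelium markers 3 rose, 2 fell, both of them 2-fold or more, and 6 did not pass. Their log2 values ran from -3.14 to 3.86. Each way 20.4% of all genes passed. The 2 markers that fell are not named here. Pdgfrb, a receptor of mesenchymal cells, rose to 19.6, 20.7 and 20.03 CPM in KO, against 1.78, 2.83 and 2.77 CPM in NHD13 (log2 3.02 ± 0.14), and Pecam1, which blood progenitors share, rose (log2 1.13 ± 0.09).

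**Figure D3:**
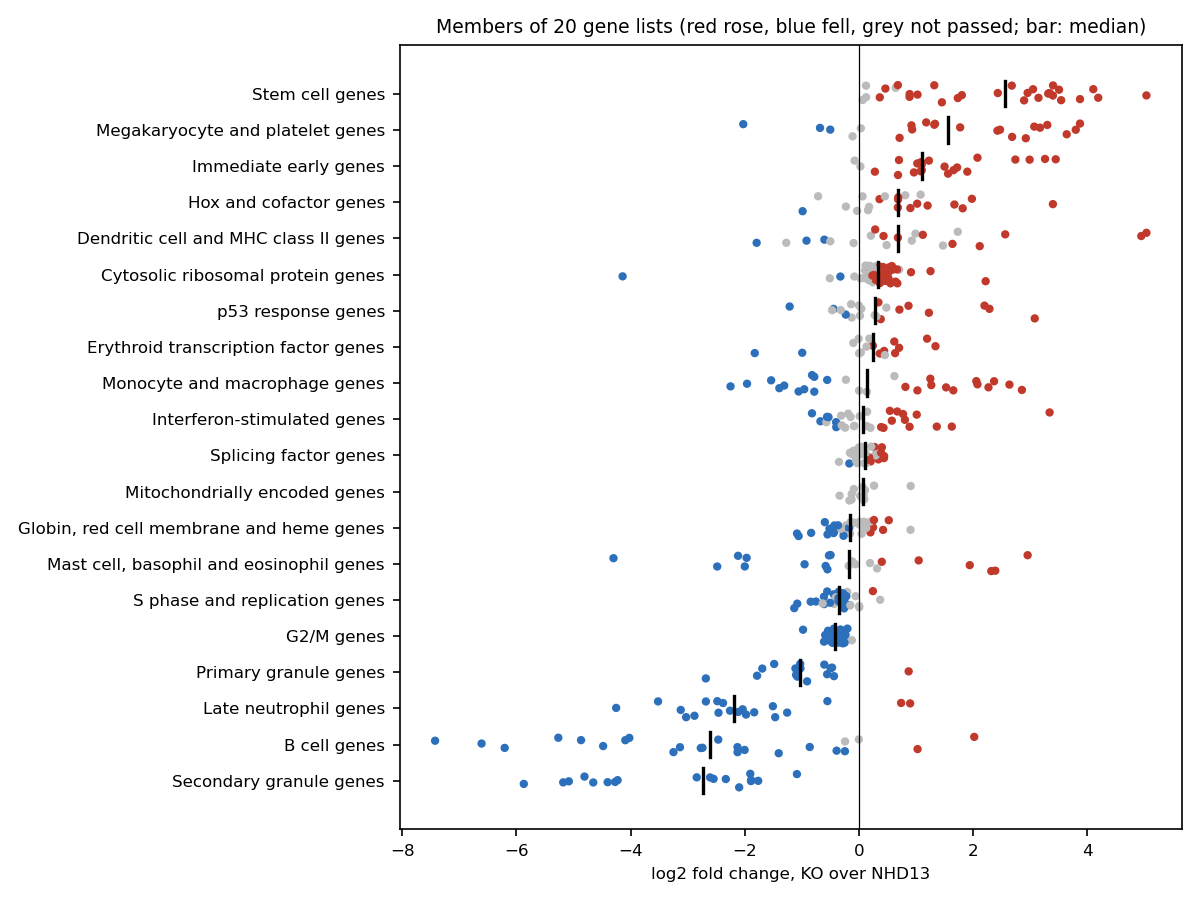
Each point is a tested member of 1 of 20 gene lists, at its log2 fold change (KO over NHD13), red where it rose, blue where it fell and grey where it did not pass, with a bar at the median of the list. Stem cell genes have a median of 2.55 and secondary granule genes one of -2.72; monocyte genes spread to both sides around 0.14.

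Erythroid genes did not share 1 direction. Klf1, the master factor of red cell genes, had 209, 207 and 222 CPM in KO, against 213, 225 and 246 CPM in NHD13 (log2 -0.1 ± 0.07, adjusted p = 0.306), and Epor, the erythropoietin receptor, 47.2, 47.6 and 44.6 CPM in KO, against 46.3, 39.8 and 53.7 CPM in NHD13 (log2 -0.01 ± 0.11, adjusted p = 0.977); neither passed, nor did Gfi1b and Tal1. Without TMM factors Klf1 and Epor had log2 values of 0.09 and 0.18 and did not pass, and Gfi1b (0.32) and Tal1 (0.37) passed, at a median of all genes of 0.21. Of 17 erythroid factor genes 8 rose (13 without TMM factors), among them Zfpm1, the cofactor of GATA1 (log2 0.62 ± 0.11), Stat5a (0.7 ± 0.09) and Sox6 (1.34 ± 0.17). The 2 that fell, E2f2 (log2 -1.82 ± 0.11; 5.48, 5.67 and 4.65 CPM in KO, against 19.9, 17.2 and 19 CPM in NHD13) and Mybl2 (-0.99 ± 0.13), are regulators of the cell cycle. Among 36 globin, red cell membrane and heme genes 5 rose, 14 fell and 17 did not pass (median log2 -0.15, but 0.04 without TMM factors, where 15 rose and 5 fell). Without KO replicate 1 or NHD13 replicate 1, 3 and 2 of them rose. With TMM factors 20.4% of all genes passed each way. Alas1, the first enzyme of heme synthesis in most cells, had 552, 601 and 573 CPM in KO, against 1202, 1156 and 1303 CPM in NHD13 (log2 -1.08 ± 0.06). The membrane skeleton genes Epb42 (log2 -0.84 ± 0.18) and Add2 (-0.6 ± 0.10) fell, and the ferritin gene Fth1 (0.52 ± 0.07) rose. Globins were scarce in these sorted cells, with Hbb-bs at 26.4, 27 and 30.04 CPM in KO, against 19.3, 21.2 and 21.7 CPM in NHD13.

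Genes of dividing cells were lower by a common small step. Of 28 G2/M genes 27 fell and 1 did not pass (median log2 -0.41). Their log2 changes ran from -0.98 to -0.12. Plk1, the mitotic kinase, had 49.7, 54.3 and 46 CPM in KO, against 104, 81.2 and 111 CPM in NHD13 (log2 -0.98 ± 0.13, adjusted p = 1.86e-05), Cdk1, which drives entry into mitosis, 183, 183 and 181 CPM in KO, against 280.3, 288 and 267 CPM in NHD13 (log2 -0.61 ± 0.06), and Ccnb2, its cyclin, 183, 181 and 182 CPM in KO, against 263, 262 and 269.9 CPM in NHD13 (log2 -0.54 ± 0.05). Without TMM factors 17 of the 28 fell (median -0.23), at a median of all genes of 0.21. In the S phase list 22 of 32 fell and 1 rose (median -0.34), or 10 and 3 without TMM factors. Rrm2, the small subunit of ribonucleotide reductase, had 290.0, 309 and 292 CPM in KO, against 652, 652 and 651 CPM in NHD13 (log2 -1.13 ± 0.05), and the cyclin E genes Ccne2 (log2 -1.08 ± 0.11) and Ccne1 (-0.85 ± 0.06) fell. WT was lower than both groups in Plk1, at 29.8 ± 4.83 CPM, and in Cdk1, at 138 ± 9.65 CPM. Among 30 repair genes 5 rose and 8 fell (12 and 3 without TMM factors), beside 20.4% each way of all genes with TMM factors. Fanca of the Fanconi pathway (log2 -0.82 ± 0.07) fell, whereas Parp1 (log2 0.43 ± 0.08) rose.

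Immediate early genes, which cells switch on within minutes of a stimulus or of handling, were higher in KO, where 21 of 23 rose (median log2 1.10). Egr1, a zinc finger factor, had 689, 735 and 670.1 CPM in KO, against 86.7, 76 and 101 CPM in NHD13 (log2 2.99 ± 0.13, adjusted p = 1.16e-09). Fos, a subunit of AP-1, had 781, 888 and 768 CPM in KO, against 287, 250.2 and 324 CPM in NHD13 (log2 1.5 ± 0.09), and Nr4a1, an orphan nuclear receptor, 109, 124 and 111 CPM in KO, against 11.2, 9.96 and 14.7 CPM in NHD13 (log2 3.26 ± 0.15). Atf3 (log2 1.9 ± 0.09) and Zfp36 (1.1 ± 0.08) rose. WT means were near those of KO, with 637 CPM for Egr1, 1109.9 for Fos and 132 for Nr4a1. Of 18 heat shock and unfolded protein genes 4 rose and 7 fell, beside 20.4% each way of all genes. The heat shock gene Dnajb1 rose (log2 0.63 ± 0.06). The unfolded protein and amino acid response genes Asns (log2 -1.04 ± 0.06), Chac1 (-2.42 ± 0.35) and Hsp90b1 (-0.57 ± 0.06) fell.

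Among 21 p53 response genes 8 rose and 3 fell, beside 20.4% each way of all genes. Cdkn1a, the inhibitor p21 of cyclin-dependent kinases, had 158, 158 and 186 CPM in KO, against 29.6, 34.9 and 38.2 CPM in NHD13 (log2 2.29 ± 0.09, adjusted p = 1.39e-13), and Plk2 rose to 25.7, 26.9 and 26.1 CPM in KO, against 3.46, 3.67 and 2.22 CPM in NHD13 (log2 3.08 ± 0.13). WT means were 162 CPM for Cdkn1a and 31.6 for Plk2. Mdm2, whose product degrades p53, fell by a small step (log2 -0.23 ± 0.08), a call lost without TMM factors (log2 -0.04) and without any of 3 single libraries. The death receptor gene Fas, another target, fell (log2 -1.21 ± 0.21). Bcl2, which protects cells from death, rose to 21.3, 24.1 and 21.5 CPM in KO, against 6.86, 7.34 and 10.6 CPM in NHD13, and the death-promoting Bcl2l11 (log2 0.7 ± 0.11) rose too.

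Interferon and inflammatory genes held members that moved both ways. Of 30 interferon-stimulated genes 12 rose and 6 fell, beside 20.4% each way of all genes. The membrane proteins Ifitm1 (131, 125 and 131 CPM in KO, against 12.9, 11 and 14.3 CPM in NHD13, log2 3.34 ± 0.08) and Ifitm3 (log2 0.89 ± 0.05), which stem cells make without interferon, rose, and Gbp2 rose (log2 1.63 ± 0.17), but Cxcl10 (log2 -0.82 ± 0.08), Ifit2 (-0.68 ± 0.14) and Oas1a (-0.56 ± 0.08) fell, and Isg15 (-0.09 ± 0.11) and Irf7 (-0.15 ± 0.11) did not pass. In the inflammatory list 10 of 24 rose and 4 fell. The chemokine genes Ccl9 (log2 1.51 ± 0.08), Ccl4 (1.44 ± 0.07) and Ccl3 (0.85 ± 0.07) rose, and Il6 rose to 3.48, 4.34 and 3.32 CPM in KO, against 0.432, 0.524 and 0.297 CPM in NHD13 (log2 3.15 ± 0.31). Il1b fell to 4.64, 4.57 and 4.41 CPM in KO, against 30.7, 35.2 and 34.5 CPM in NHD13, and Tnf (log2 -0.2 ± 0.09) did not pass. Of the growth factor receptors, the interleukin 6 signal chain Il6st rose (log2 2.81 ± 0.19), as did Il3ra (1.44 ± 0.15), while Csf2ra, a chain of the GM-CSF receptor, fell (-1.06 ± 0.13).

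Of 81 genes for cytosolic ribosomal proteins 53 rose and 2 fell (75 and 1 without TMM factors), with a median log2 of 0.34, and 35 rose without NHD13 replicate 3. Rps19 had 3222, 2972 and 3399 CPM in KO, against 1903, 2092 and 2026 CPM in NHD13 (log2 0.67 ± 0.08). Mitochondrial ribosomal proteins did not share this, with 5 of 76 rising, 15 falling and 56 not passing (23 rising and 3 falling without TMM factors, and 3 rising without KO replicate 3 or NHD13 replicate 1). Among 23 entries of glycolysis and hypoxia genes (1 symbol stands on 2 of them) 3 rose and 9 fell, or 7 and 6 without TMM factors. Gpi1, the glucose phosphate isomerase gene, had 566, 662 and 604 CPM in KO, against 1573, 1444 and 1746 CPM in NHD13 (log2 -1.38 ± 0.08). Eno1, an enolase gene, fell as well (log2 -1.03 ± 0.09). Pkm, the pyruvate kinase gene, fell to 872, 965 and 890.4 CPM in KO, against 1583, 1413 and 1684 CPM in NHD13 (log2 -0.78 ± 0.09), and the growth factor gene Vegfa fell (log2 -1.17 ± 0.08). Splicing factor genes moved little, between -0.35 and 0.44 on the log2 scale, with 9 of 30 rising (19 without TMM factors), among them Rbm39 (log2 0.44 ± 0.06). Of all genes 20.4% rose with TMM factors.

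Dnmt3b, a de novo methyltransferase whose PWWP domain reads H3K36me3, had 45.4, 50.2 and 46.4 CPM in KO, against 16.1, 15.2 and 19.6 CPM in NHD13 (log2 1.48 ± 0.09, adjusted p = 6.72e-11). Its relative Dnmt3a had 36.6, 48.9 and 40.6 CPM in KO, against 24.4, 19.3 and 27.4 CPM in NHD13 (log2 0.83 ± 0.12), and the demethylase gene Tet1 rose to 11, 9.44 and 8.97 CPM in KO, against 3.94, 4.88 and 3.41 CPM in NHD13 (log2 1.26 ± 0.14). Dnmt3l, a cofactor of both that germ cells use, fell to 0.843, 0.533 and 0.57 CPM in KO, against 3.4, 3.15 and 2.42 CPM in NHD13 (log2 -2.22 ± 0.30). Of the 13 genes of DNA methylation enzymes 5 rose, 2 fell and 6 did not pass. Of 24 genes that write, erase or read H3K36 methylation 5 rose and 5 fell, a share near the 20.4% each way of all genes (10 and 1 without TMM factors, 3 and 3 without KO replicate 1, and 3 falling without KO replicate 3 or NHD13 replicate 1), between -0.52 and 0.47 on the log2 scale. Nsd2, which dimethylates this site, had 33.4, 31.8 and 33.7 CPM in KO, against 39.3, 38.7 and 38.5 CPM in NHD13 (log2 -0.24 ± 0.06), and its call was lost without TMM factors (log2 -0.05). Its relative Nsd1 fell less (log2 -0.18 ± 0.07, adjusted p = 0.0401), a call lost under 14 of 19 alternatives, with a value of 0.0068 without TMM factors. Among Polycomb and MLL genes 7 of 26 rose, with Kmt2a, which activates Hox genes (log2 0.83 ± 0.08), and Phc1 (1.01 ± 0.17), and 2 fell (11 and 1 without TMM factors, 4 rising without KO replicate 3). The share that rose was near the 20.4% of all genes, and the median log2 of the list was 0.005.

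Outside the lists, the largest changes among well-expressed genes included several not tied to 1 blood lineage. Ctla2a, a cysteine protease inhibitor, rose most (245, 233 and 230.3 CPM in KO, against 5.89, 5.87 and 5.93 CPM in NHD13, log2 5.32 ± 0.10, adjusted p = 2.55e-17). Mc5r, a melanocortin receptor gene, had 51.7, 53.4 and 51.1 CPM in KO, against 1.67, 1.47 and 1.73 CPM in NHD13 (log2 5.0 ± 0.10), and the G protein regulator Rgs1 309, 285 and 279 CPM in KO, against 15.5, 18.1 and 17 CPM in NHD13 (log2 4.11 ± 0.10). The sphingosine receptor gene S1pr1 (log2 3.72 ± 0.14), the prostaglandin receptor gene Ptger3 (3.55 ± 0.19), Scin (3.53 ± 0.11) and Afap1l1 (3.54 ± 0.18) rose. Ddx4, an RNA helicase of germ cells, had 63.7, 54.2 and 48.8 CPM in KO, against 4.7, 5.51 and 3.36 CPM in NHD13 (log2 3.62 ± 0.15), far above its WT mean of 5.83 CPM. Afap1, an actin filament binder, had 0.58, 1.14 and 0.522 CPM in KO, against 36.4, 38.4 and 36.3 CPM in NHD13 (log2 -5.56 ± 0.19), with 15.7 CPM in WT and 0.223 CPM in AML. Lrg1, a glycoprotein of neutrophil granules (log2 -4.48 ± 0.20), and Olfml2b (-4.35 ± 0.17) fell by less.

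DNA methylation was deposited as regions that differ between 1 KO and 1 NHD13 library of the same kind of cells, so it has no replicates and no coverage. Of 32545 regions off X and Y in the authors' deposited table, 25760 (79.2%) were more methylated in KO and 6785 less. In the regions that were higher, the median methylation was 0.804 in KO and 0.516 in NHD13, and in those that were lower 0.403 in KO and 0.698 in NHD13. RefSeq windows gave starts for 10432 of the tested genes. Among 706 genes that fell 2-fold or more, 23.9% had a region more methylated in KO within 1000 bases of a start, against 6.08% of 5744 genes that did not pass and 9.64% of 851 that rose 2-fold or more. Regions less methylated in KO lay near 4.67% of the genes that fell 2-fold, 6.48% of those that did not pass and 9.99% of those that rose 2-fold. Within 3 groups of equal size by expression the share with a more methylated region among genes fallen 2-fold was 22.6% in the lowest, 22.6% in the middle and 28.8% in the highest, and among genes that did not pass 10.6%, 4.06% and 2.25%. Among genes that rose 2-fold or more it was 9.57%, 7.94% and 16.1% (9 of 56 genes in the highest), so in the highest group it was also above that of genes that did not pass. These shares are descriptions, and CpG density at the starts was not matched.

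**Figure D4:**
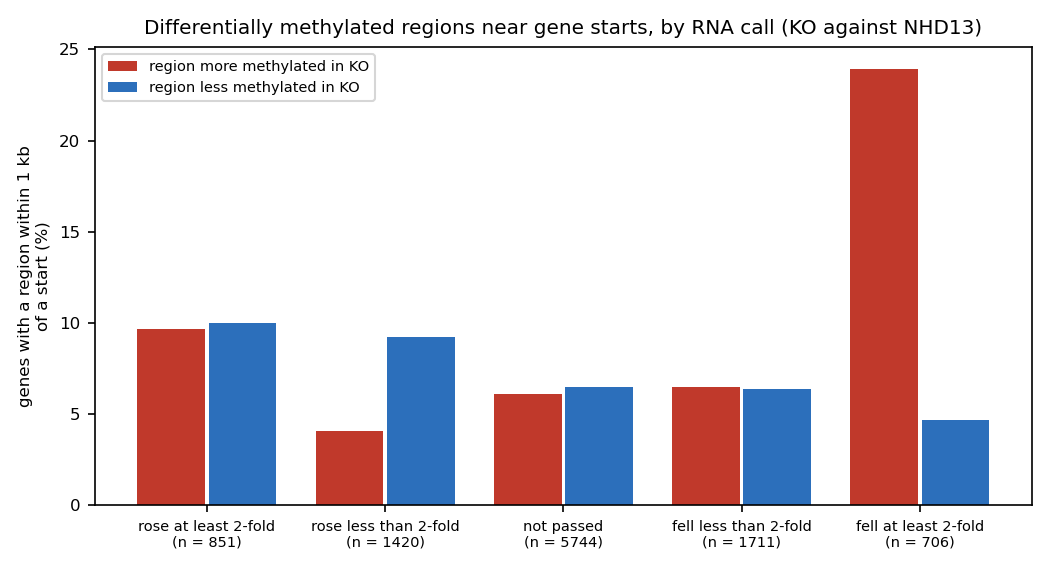
Bars give the percent of genes with a region within 1 kb of a start that is more (red) or less (blue) methylated in KO than in NHD13, for 5 classes of the RNA comparison with their numbers of genes. The red bar of genes fallen 2-fold or more stands at 23.9%, and those of the other classes at 4.08% to 9.64%.

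Granulocyte genes were among those with such regions. Primary granule genes had a region more methylated in KO near 6 of 13 starts, secondary granule genes near 5 of 15 and late neutrophil genes near 6 of 16. For comparison, the share was 6.08% of the 5744 genes that did not pass and 23.9% of the 706 that fell 2-fold or more. In the other classes of the RNA comparison it ran from 4.08% to 9.64%. The trait was not particular to granulocyte lists: lymphoid priming genes had 5 of 14, monocyte and macrophage genes 5 of 18 and stroma and endothelium genes 3 of 8. Stem cell genes had 3 of 24 and G2/M genes 1 of 23. The S100a8 region (chr3:90668993-90669785; 28 sites, which count both strands) runs over the start printed above, with the 4 of its CpG pairs that lie in the window in capitals, and was methylated at 0.624 in KO and 0.255 in NHD13 in the authors' deposited table. The fractions in the authors' deposited table were 0.792 in KO and 0.534 in NHD13 at Camp (chr9:109849395-109849572), 0.893 and 0.688 at Ngp (chr9:110419540-110419653), and 0.67 and 0.395 at Cd177 (chr7:24760375-24760504), KO before NHD13. Ltb4r1 had the widest gap among 19 granulocyte genes in the authors' deposited table, 0.779 in KO and 0.294 in NHD13. Cyba went the other way in the authors' deposited table, with 0.102 in KO and 0.265 in NHD13. No region lay within 1000 bases of the start of S100a9, Ltf, Lcn2 or Mpo.

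**Figure D5:**
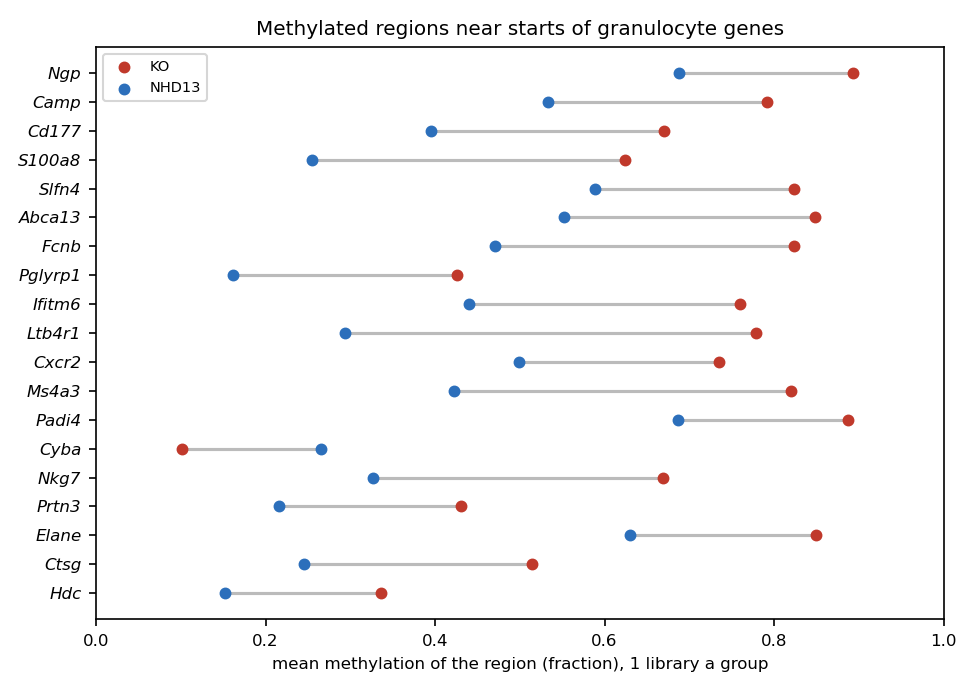
For 19 granulocyte genes with a region near a start, the deposited mean methylation (fraction, horizontal axis) of the KO library (red) and the NHD13 library (blue), ordered with the largest fall of RNA at the top. KO lies to the right of NHD13 in 18 genes and to the left at Cyba.

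Risen genes mirrored this in part. Of 1420 genes that rose less than 2-fold, 9.23% had a region less methylated in KO and 4.08% one more methylated. Among genes risen 2-fold or more, 9.99% had a less methylated region and 9.64% a more methylated one. By expression (lowest, middle, highest group), the share with a less methylated region was 9.08%, 13.8% and 7.14% of genes risen 2-fold. It was 6.53%, 7.22% and 5.65% of genes that did not pass. Single genes went both ways. In the authors' deposited table Gata2 had a region less methylated in KO (0.102 in KO, 0.253 in NHD13), as did Cd68 (0.334 and 0.655) and Satb1 (0.154 and 0.405). At Nr4a1 (0.819 in KO, 0.414 in NHD13), Ifitm1 (0.517 and 0.232) and Scin (0.737 and 0.387), which rose, the methylation in the authors' deposited table was higher in KO. E2f2 fell and was less methylated in the authors' deposited table (0.444 in KO, 0.77 in NHD13). A region at Hoxb4 was at 0.335 in KO and 0.776 in NHD13 in the authors' deposited table, with Hoxb4 RNA at 0.516 CPM in KO and 0.83 CPM in NHD13.

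H3K36me3 was profiled only in leukemic spleen cells, 1 library a genotype, so the peaks are not those of these progenitors. The authors called 16902 broad peaks over 28.4 Mb in the Setd2 KO leukemia and 30953 over 193 Mb in the NHD13 leukemia. Among the most expressed genes (the highest of 3 equal groups), a peak of the KO leukemia overlapped 40.8% of those that fell 2-fold or more, 76.6% of those that did not pass and 49.4% of those that rose 2-fold or more. In the NHD13 leukemia the shares were 87.8%, 96.5% and 66.3%. The transcript length used for FPKM showed little relation to the direction. Over 3 groups by this length (medians of 1388, 3553 and 7164.5 bases) the median log2 fold change was 0.05 in the shortest, -0.01 in the middle and 0.04 in the longest. Of the genes 16.9%, 19.6% and 24.6% rose and 17.4%, 23.0% and 20.8% fell. The length of the gene on the genome was not examined.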

How the data were processed

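RNA-seq counts per gene were deposited by the authors as whole numbers for 12 libraries; per the submitters' processing notes the tools include HISAT2 2.0.5, HTSeq 0.9.1 and DESeq2 1.22.2, and for the other assays Bismark 0.19.0, Bowtie2 2.2.9 and MACS2. The deposited FPKM values (fragments scaled by transcript length and depth) served as an alternative. The deposited methylation table gives a mean fraction per region and library, and which column is KO was taken from 4032 regions shared with the authors' other tables. The deposited H3K36me3 peaks carry a fold and a −log10 q each, which were used only to describe the lists.

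Groups came from sample titles. Counts were fitted with edgeR 4.0.16 (R 4.3.3) over all 12 libraries (TMM factors, expression filter over the 4 groups, group means, 8 residual degrees of freedom), with Benjamini-Hochberg adjustment over 15742 genes at 0.05. Placement on X and Y came from RefSeq, and 1601 tested genes had no placement. SE is the log2 fold change divided by the root of F. Alternatives were other scalings, DESeq2 1.42.0, limma 3.58.1 on log2(FPKM + 1) and log2(FPKM + 0.1), other filters, fewer libraries and a replicate block. Tested on simulated data for KO against NHD13, the fit called 95 of 100 genes changed 2-fold, 89 of 100 changed 1.5-fold and 10 of 15102 unchanged genes. The simulated counts took their spread from the fit itself, had few changed genes and lacked the shift in scaling between these groups. They give no error rate for the deposited libraries, where 6421 of 15742 genes passed. Libraries of a group differed by more than counting noise (pairs had chi-square values 4.31 to 22.3 times their degrees of freedom), and the biological coefficient of variation in the fit was 0.087.

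The comparison, its gene lists and the rule for named genes were chosen with earlier results of these data known. The rule took Setd2, S100a8, S100a9, the 15 largest changes each way at 10 CPM or more, up to 4 members of each list with the smallest p, and members that went against their list. Of the 191 genes named, 59 lie outside the rule and were chosen with their values seen. Of the 272 genes the rule takes 132 are named, and which of them was decided with their values and their results under the alternatives known, so named genes are more stable than the rule's genes as a whole. Some genes of the lists are counted but not reported here by name.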

Additional observations from a re-analysis of the deposited data

Results flagged for a closer look

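Sex-linked genes, left out of the comparison, separated the groups. The Y-linked genes Ddx3y, Eif2s3y, Kdm5d and Uty averaged 36.4, 55.6, 10.2 and 9.56 CPM of the library total in KO, at or near 0 in NHD13. Xist, made from the inactive X, was near 0 in KO and averaged 77.0 CPM in NHD13. The groups thus differ in sex as well as in Setd2 label, and effects of the 2 on other genes cannot be told apart.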

How the results depend on the processing

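Without TMM factors 5280 genes rose and 1995 fell. On log2(FPKM + 0.1) values 5076 rose and 1951 fell, 669 of them 2-fold or more, and on log2(FPKM + 1) values 1887 fell, 373 rose 2-fold or more and 314 fell 2-fold or more. Leaving out 1 library at a time gave 2762 to 3046 genes that rose and 2788 to 3087 that fell (1236 to 1317 and 972 to 1015 at 2-fold or more). With DESeq2 3192 rose and 3214 fell. The median log2 of 10 gene lists turned sign without TMM factors, while those of the neutrophil, stem cell, platelet, immediate early and B cell lists did not. Of 272 genes the naming rule takes, 266 passed, 54 of these lost the call under at least 1 of 19 alternatives, and 5 turned sign. The 131 of the 266 that are named in the text include 6 of the 54, and the 135 that are not named include 48: genes with small changes whose call or sign depended on the scaling or on single libraries were left out more often, so the stability of the named genes does not speak for the rest.

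Of the genes named here 6 turned sign, Nsd1, which had passed, and 5 that had not. Nsd1 was at 0.0068 without TMM factors, 0.0057 on log2(FPKM + 1) and 0.0087 on log2(FPKM + 0.1) values. Without TMM factors the log2 values of the others were 0.18 for Epor, 0.039 for Irf7, 0.099 for Isg15, 0.088 for Klf1 and 0.138 for Setd2. On log2(FPKM + 1) values they were 0.181 for Epor, 0.040 for Irf7, 0.090 for Isg15, 0.089 for Klf1 and 0.10 for Setd2, and on log2(FPKM + 0.1) values 0.19 for Epor, 0.047 for Irf7, 0.095 for Isg15, 0.089 for Klf1 and 0.132 for Setd2. With upper-quartile factors Epor was at 0.065 and Setd2 at 0.02, and with at least 1 CPM in 3 libraries Epor was at 0.0003. Leaving out 1 library at a time gave -0.10 to 0.11 for Epor and -0.10 to 0.036 for Setd2. The cause was not tested.

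Replicate numbers did not pair the samples: libraries of the same number correlated at 0.01, -0.23 and -0.01 in their deviations from the group means. With the replicate block on KO and NHD13 libraries 2837 genes rose and 2934 fell (1177 and 958 at 2-fold or more), and with it on all 12 libraries 3105 rose and 3115 fell. Epor was at 0.0079 with the block on the 6 libraries.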

Other observations

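Some smaller groups were not described above. Of 53 replication-dependent histone genes 12 rose and 1 fell (median log2 0.17), with levels that depend on how RNA without a poly(A) tail was captured. Each way 20.4% of all genes passed. Of 19 cholesterol synthesis genes 2 rose and 8 fell (6 and 2 without TMM factors, where the median log2 was 0.08, against -0.11 with them), and 3 fell without KO replicate 1, 4 without KO replicate 3 or NHD13 replicate 1, and 5 without NHD13 replicate 2 or 3. Sc5d, a late enzyme of the pathway, fell to 13.1, 12.9 and 13.2 CPM in KO, against 36.9, 34 and 35.5 CPM in NHD13 (log2 -1.44 ± 0.09). Of 87 respiratory chain genes 17 rose and 11 fell (46 and 5 without TMM factors), and 9 rose without KO replicate 1, 6 without KO replicate 3 and 7 without NHD13 replicate 1. Of 37 proteasome genes 6 rose and 6 fell (17 rose without TMM factors, where the median log2 was 0.14, against -0.05 with them), and 3 fell without KO replicate 1, NHD13 replicate 1 or NHD13 replicate 3 and 2 without KO replicate 3. Among 12 imprinted genes tested 2 rose and 1 fell (7 rose without TMM factors).

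Immunoglobulin segments differed between groups in several cases. Any that passed the expression filter were tested with the other genes. Ighv3-6 had 11.8, 13.7 and 10.1 CPM of the library total in KO, against 0, 0.167 and 0 in NHD13. Igkv3-10 had 0, 0 and 0.0437 CPM in KO, against 8.81, 32.3 and 24 in NHD13. Whether the libraries of a group share an animal was not tested.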
